A study of Mus musculus with 7 samples.

Results

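Intracisternal A particles (IAPs) are endogenous retroviruses of the mouse, and their long terminal repeats (LTRs) are the short, repeated ends of the provirus. The LTR loci described here are all rows of the deposited RepeatMasker count table whose element name begins with IAP and does not end in -int, the suffix for the internal part of the provirus. The rule found 13908 loci under 16 names among the 3494995 LINE, SINE and LTR elements of the table. It used names and distances to genes only, and no read count. An LTR carries the promoter, the start of transcription and the polyadenylation signal of the provirus, and recombination between both ends of a provirus leaves a lone LTR behind. In most mouse tissues these repeats are kept silent by DNA methylation and by KRAB zinc finger proteins that recruit Trim28 and the histone methyltransferase Setdb1, and in fetal male germ cells by the piRNA pathway as well.

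The libraries were made from whole testes of embryos at E14.5 on a C57BL/6 background, with 1 pair of testes per library. There were 3 wild-type libraries and 4 libraries from mutants for *Glis3*, a Krüppel-like zinc finger transcription factor, in which a deletion in exon 4 and the introns around it (the zf5 allele, homozygous) removes the gene's function in every cell of the animal. Total RNA was depleted of ribosomal RNA and primed at random, with no selection for poly-A tails and no record of strand, so a read on an LTR may come from either strand and from unspliced transcripts of a host gene. Only uniquely mapped reads were counted by the authors, and copies that are nearly identical in sequence can therefore lose reads.

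The libraries held 3454317 to 4670830 reads on elements, and 4979 to 7352 of these (0.144 to 0.191%) lay on IAP LTR loci. *Glis3* itself (chromosome 19, 28262448 to 28680077, minus strand, mm10 as all coordinates of the deposited tables) stood at 7.63, 6.89 and 2.91 FPKM in the wild-type group and at 3.86, 3.26, 2.90 and 2.66 FPKM in the mutants, with replicates in order of number here and below. The library labelled wild-type replicate 3 was within the range of the mutants, so the main comparisons are also given without it. Summed FPKM of 10 germ cell markers was 1266, 872 and 544 for wild-type and 588, 517, 508 and 448 for mutants. All 10 had lower means in mutants and none passed the limma test, and in bulk tissue fewer germ cells and less RNA per germ cell cannot be told apart. Sertoli, fetal Leydig and endothelial markers were present in all libraries, as they should be in a testis. The 5 fetal Leydig markers had higher means in mutants, with sums of 1596, 2658 and 1795 FPKM in wild-type and 2959, 2498, 2693 and 3073 FPKM in mutants (exact permutation test, p = 0.0571, as for the germ cell markers). Mast cell marker sums were 1.28 to 2.90 FPKM in wild-type and 2.46 to 17.1 FPKM in mutants. The part of these cell types in the results below was not tested. Summed markers of blood ran from 931 to 3401 FPKM, highest for the library labelled wild-type replicate 3, and those of skeletal muscle from 1.19 to 27.3 FPKM with the highest in mutant replicate 4.

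The LTR of the group named IAPLTR2_Mm held the most reads of all 16 names, and 3 of its loci with a mean of at least 5 reads contain the annotated start of a RefSeq transcript. These windows are printed because they show the LTR sequence at loci whose reads varied among embryos of either genotype. Each is the RefSeq promoter window (GRCm38, 250 bases before to 50 after the start), written 5′ to 3′ in the direction of the transcript. Capitals mark TATAA and CCAAT or their reverse complements. The window of LOC115487747, on the minus strand at chr11:113173034-113173333, lies whole inside an LTR on the plus strand; that of 4930481A15Rik, on the plus strand at chr19:5406565-5406864, has 258 bases on an LTR on the minus strand; that of AA388235, on the plus strand at chr17:33981242-33981541, has 273 bases on an LTR on the plus strand.
LOC115487747: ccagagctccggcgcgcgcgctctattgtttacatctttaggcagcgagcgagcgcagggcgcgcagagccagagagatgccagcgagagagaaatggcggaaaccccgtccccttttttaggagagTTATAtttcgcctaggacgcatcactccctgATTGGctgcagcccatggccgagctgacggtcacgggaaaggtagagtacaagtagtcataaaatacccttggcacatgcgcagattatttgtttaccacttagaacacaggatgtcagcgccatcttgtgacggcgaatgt
4930481A15Rik: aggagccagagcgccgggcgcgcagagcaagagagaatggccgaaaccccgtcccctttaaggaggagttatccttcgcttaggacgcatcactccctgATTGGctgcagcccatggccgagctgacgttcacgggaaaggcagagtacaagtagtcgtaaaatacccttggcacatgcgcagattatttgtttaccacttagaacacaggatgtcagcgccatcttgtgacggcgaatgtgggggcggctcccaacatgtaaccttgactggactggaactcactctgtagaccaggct
AA388235: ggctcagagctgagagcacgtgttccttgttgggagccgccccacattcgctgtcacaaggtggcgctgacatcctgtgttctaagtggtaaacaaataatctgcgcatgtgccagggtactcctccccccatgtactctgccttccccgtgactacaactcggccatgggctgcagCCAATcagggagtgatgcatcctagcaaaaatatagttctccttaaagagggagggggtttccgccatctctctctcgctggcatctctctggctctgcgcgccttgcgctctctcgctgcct
LOC115487747 and 4930481A15Rik start against the direction of their LTR, AA388235 in its direction. The first pair share a run of 83 identical bases, and AA388235 shares a run of 54 bases with each of them as the reverse complement, so all 3 windows share a stretch of the LTR. All hold CCAAT once, and only LOC115487747 holds TATAA. Across all 32851 RefSeq promoter windows 37.4% hold CCAAT and 24.9% hold TATAA on either strand. Among the 46 windows with at least 250 bases on an IAP LTR the shares were 71.7% and 39.1%. The letters AATAAA, the usual polyadenylation signal, were in 65.2% of these 46 windows and in 19.6% of all windows, and TGACG was in 63.0% and 20.8%. CG dinucleotides, the bases that carry DNA methylation, numbered 22, 17 and 13 in the 3 printed windows, against a median of 13.5 in the 46 windows and 7 in all windows. In total 49 RefSeq starts lay on an IAP LTR, 32 in the direction of the LTR and 17 against it, and 11 of them lay on an LTR with a mean of at least 1 read.

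The reads of these 3 LTRs varied among embryos of the same genotype. At the LTR of LOC115487747, inside the gene *2610035D17Rik*, there were 4, 51 and 49 reads in wild-type and 26, 12, 24 and 56 in mutant libraries. The LTR of 4930481A15Rik had 4, 12 and 19 reads in wild-type and 5, 2, 12 and 22 in mutant libraries. The LTR of AA388235 had 0, 4 and 15 reads in wild-type and 0, 0, 14 and 16 in mutant libraries. Wild-type replicate 1 was the lowest of its genotype at all 3, and mutant replicate 4 was the highest of all libraries. The genotypes overlapped at each, and none was called.

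Such spread within a genotype was found at a minority of IAP LTR loci, but more often than among all elements. Of the 81 loci with a mean of at least 10 reads, 10 (12.3%) varied at least 4-fold among the wild-type libraries and at least 4-fold among the mutant libraries, with a count of 0 set to 1 read. The same was true of 257 of all 60909 elements with as many reads (0.422%). With a mean of at least 20 reads the numbers were 3 of 38 IAP LTR loci (7.89%) and 82 of 24880 elements (0.330%). The median locus was not variable in this way, with a range of 1.73-fold in wild-type and 1.96-fold in mutant libraries, beside 1.54 and 1.72-fold over all elements. Of the 10 loci, 7 were IAPLTR2_Mm. The largest range was at an IAPLTR2_Mm locus on chromosome 7 (85373723 to 85374195, minus strand, 32181 bases from *Vmn2r69*, a vomeronasal receptor gene), with 0, 23 and 36 reads in wild-type and 2, 0, 21 and 76 in mutant libraries. The locus in *Ect2l* (chromosome 10, 18139121 to 18139597) had 11, 40 and 43 reads in wild-type and 3, 5, 22 and 54 in mutant libraries. At both, wild-type replicate 1 and mutant replicates 1 and 2 were low and the other libraries high. The IAPLTR2_Mm locus 15302 bases from *Gm13212* was the reverse, highest in wild-type replicate 1 and mutant replicates 1 and 2. It had 31, 5 and 6 reads in wild-type and 13, 26, 2 and 6 in mutant libraries. The IAPLTR1_Mm locus in *Cdk5rap1*, a tRNA-modifying enzyme gene, was different again, with 11, 42 and 5 reads in wild-type and 14, 12, 30 and 4 in mutants. Wild-type replicate 1 and mutant replicates 1 and 2 were again the lowest libraries at the IAPLTR2_Mm loci nearest *Il15*, nearest *Rab6b* and in *4930481A15Rik*. At the first there were 5, 35 and 18 reads in wild-type and 3, 1, 9 and 19 in mutant libraries. Since the loci were selected for spread within both genotypes, any split at them had to cross genotype. The split with wild-type replicate 1 and mutant replicates 1 and 2 lowest recurred, though no single order held for all 10 loci. Its cause was not tested.

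**Figure D1:**
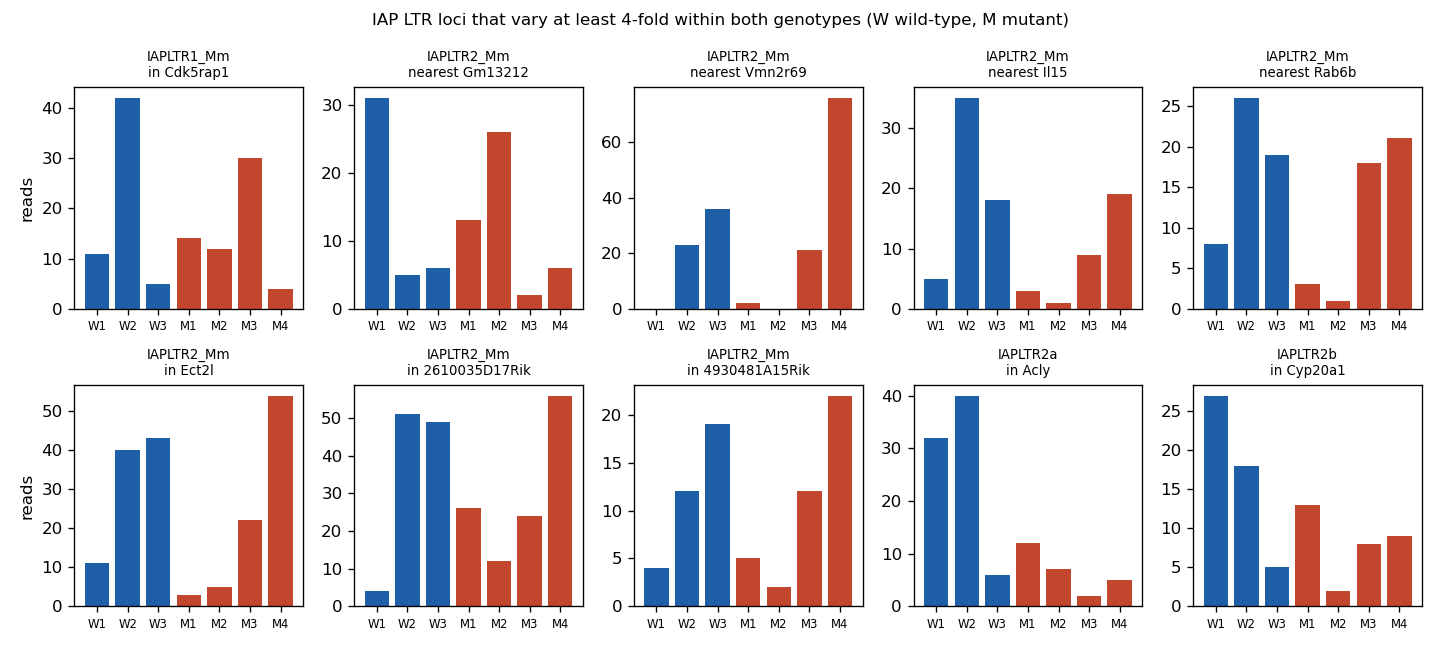
Reads (y axis) in each of the 7 libraries (x axis, W1 to W3 wild-type in blue, M1 to M4 mutant in red) of the 10 IAP LTR loci that varied at least 4-fold within both genotypes. The loci were selected for this spread, which at the locus nearest *Vmn2r69* was 0 to 36 reads in wild-type and 0 to 76 in mutants.

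The 16 names differed widely in how many of their copies were read. Of all 13908 loci, 4300 (30.9%) had a read in any library, beside 42.8% of all elements, and 814 reached a mean of at least 1 read. IAPEY4_LTR, with 95 loci the smallest name, had reads at 70.5% of its loci and a mean of 9.45 reads per locus and library, by far the highest. IAPLTR2_Mm followed with reads at 50.9% of 1388 loci and IAPLTR2a with reads at 48.8% of 627. At the other end IAPLTR3 had reads at 5.63% of its 959 loci and IAPEY_LTR at 15.4% of 1410. The most numerous name, IAPLTR1a_Mm, had 1786 loci and reads at 24.0% of them. Reads were concentrated in few copies, since 1 locus held 45.3% of the reads of IAPEY4_LTR, 49.0% of those of IAPLTR3 and 57.6% of those of IAPLTR4. For IAPLTR1_Mm, with 1492 loci, the highest locus held 4.37%. Names were not compared per base, and their median lengths ran from 291 bases for IAP1-MM_LTR to 464 for IAPLTR2_Mm.

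Most loci had an annotated IAP internal sequence beside them. Such a sequence, of any length, lay within 50 bases on the same strand of 8754 loci (62.9%). The other 5154 are called lone, which means only that none was annotated there. Almost all IAPLTR1_Mm (95.7%) and IAPLTR1a_Mm (92.6%) loci had an internal sequence beside them, and few IAPEY3C_LTR (14.3%) loci did. The rule also took in IAPLTR4_I, 183 loci whose name marks an internal piece despite the missing -int. These also counted as internal sequences beside other loci.

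**Figure D2:**
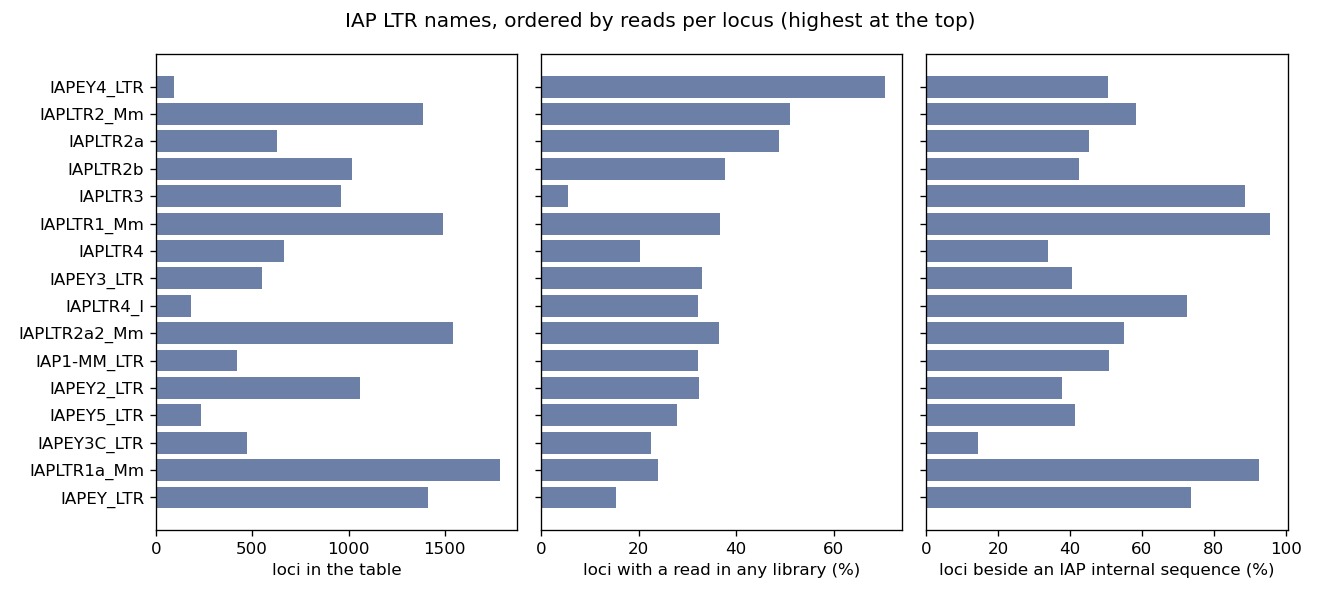
The 16 IAP LTR names (y axis), ordered by reads per locus, with the number of loci, the percentage with a read in any library and the percentage beside an IAP internal sequence (x axes). IAPEY4_LTR has the fewest loci and the largest share with reads, and IAPLTR3 the smallest share.

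IAP LTRs lay away from genes more often than other elements did. With near defined as within 10 kb of a RefSeq gene of the FPKM table, 3107 loci (22.3%) were near, 1881 of them inside a gene, and 10801 were far. Of all elements, 1747307 of 3494995 were near. Reads lay near genes more often than loci did, and 61.0% of the IAP LTR reads came from near loci, beside 91.3% of the reads of all elements. Of the 1881 loci inside genes, 1416 (75.3%) stood on the strand opposite to the gene. By GENCODE M21, 477 of those 814 loci lay in introns, 275 between genes, 36 in noncoding exons, 19 in UTRs and 6 on coding sequence.

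The first comparison asked whether the summed level of IAP LTRs differed between genotypes. Values are reads per 1000000 element reads (CPM), with library sizes scaled by TMM. The sum was 1478, 2136 and 1623 CPM in wild-type and 1573, 1482, 1758 and 1792 CPM in mutant libraries. Wild-type replicate 2 was the highest library and wild-type replicate 1 the lowest, so the genotypes overlapped fully. Wild-type libraries averaged 1746 ± 346 CPM (SD, n = 3) and mutants 1651 ± 148 CPM (SD, n = 4). The difference of -94.3 CPM was smaller than the spread between wild-type libraries (exact permutation test, two-sided, p = 0.743). With 35 ways to divide 7 libraries into 3 and 4, the smallest p this test can give is 0.0286. Without wild-type replicate 2 the difference turned to 65.8 CPM (exact permutation test, p = 0.600), and without the library labelled wild-type replicate 3 it was -168 CPM (exact permutation test, p = 0.467). The IAP internal sequences gave a sum of 7881 to 10986 CPM in wild-type and 8494 to 10091 CPM in mutant libraries, with the same overlap (exact permutation test, p = 0.486).

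No name passed the test. Summed over its loci, none of the 16 names was called by edgeR at an adjusted p under 0.1, none had an unadjusted p under 0.05, and DESeq2 called none either, with 1 unadjusted p under 0.05. DESeq2 gave an adjusted p only for IAPEY4_LTR, IAPLTR1_Mm, IAPLTR2_Mm and IAPLTR2b. Of all 831 names 1 was called (0.12%). The median log2 fold change of the 16 names was 0.01, beside 0.08 over all names, with 7 lower and 9 higher in mutants. IAPLTR2_Mm, the most abundant name, had 278, 544 and 355 CPM in wild-type and 291, 255, 400 and 481 CPM in mutant libraries, a log2 fold change of -0.13 (SE 0.25, adjusted p = 0.801 from edgeR) that turned to 0.15 without wild-type replicate 2. IAPEY4_LTR had 191, 251 and 296 CPM in wild-type and 228, 221, 275 and 268 CPM in mutants (log2 fold change 0.01, SE 0.14). The lowest fold changes belonged to IAP1-MM_LTR, at -0.39 (SE 0.25), and IAPLTR2a, at -0.38 (SE 0.21). IAPLTR2a had 220 CPM in wild-type replicate 2 and 111 to 122 CPM in all other libraries, and without that library its log2 fold change was -0.05. Leaving out the same library moved IAP1-MM_LTR to -0.08 and IAPLTR1_Mm to -0.07. Without the library labelled wild-type replicate 3 the lowest fold changes were -0.58 for IAP1-MM_LTR and -0.57 for IAPLTR2a, and no name was called. With all 7 libraries the highest was that of IAPLTR4_I, an internal piece by its name, at 0.28 (SE 0.22). Among the other IAPLTR names the log2 fold change was -0.26 for IAPLTR1_Mm, -0.05 for IAPLTR1a_Mm and -0.11 for IAPLTR2b. It was 0.03 for IAPLTR2a2_Mm, 0.15 for IAPLTR3 and 0.24 for IAPLTR4, the highest of the LTRs proper. Among the IAPEY group it was -0.05 for IAPEY2_LTR, 0.02 for IAPEY3_LTR, 0.21 for IAPEY3C_LTR, 0.11 for IAPEY5_LTR and 0.08 for IAPEY_LTR. All 16 names overlapped between genotypes.

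**Figure D3:**
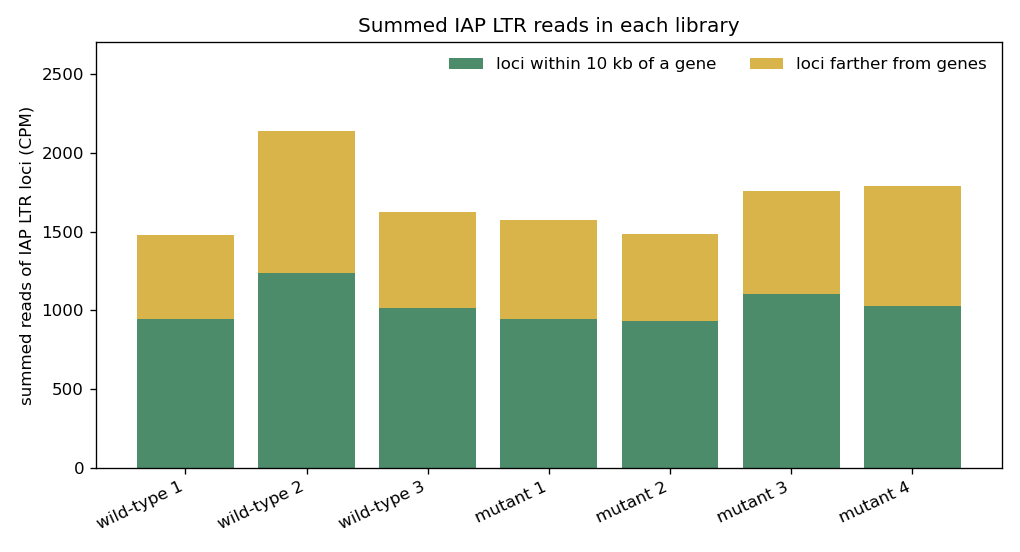
Summed IAP LTR reads in CPM (y axis) in each library (x axis), divided into loci within 10 kb of a gene (green) and farther away (yellow). Wild-type replicate 2 stands above the other libraries at 2136 CPM, and the mutants lie within the range of the wild-type libraries.

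The second comparison asked whether loci near genes and loci far from genes behaved differently. The near sum was 945, 1239 and 1014 CPM in wild-type and 948, 933, 1101 and 1025 CPM in mutant libraries (exact permutation test, p = 0.543). The far sum was 533, 897 and 609 CPM in wild-type and 625, 549, 657 and 767 CPM in mutants (exact permutation test, p = 0.83). The log2 ratio of near to far was 0.68 ± 0.19 (SD, n = 3) in wild-type and 0.63 ± 0.16 (SD, n = 4) in mutants, a difference of -0.04 (exact permutation test, p = 0.714), or -0.01 without the library labelled wild-type replicate 3. Over all elements this ratio was lower in every mutant than in every wild-type library, at 3.53 ± 0.05 (SD, n = 3) and 3.28 ± 0.08 (SD, n = 4), p = 0.0286 by the exact permutation test. Far reads of the whole table thus took a larger share in mutants, with 7.82 to 8.25% in wild-type and 8.82 to 9.83% in mutant libraries, while the far share of IAP LTR reads was 36.1 to 42.0% and 37.0 to 42.8%.

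By name, near and far sums were tested apart. Of the 16 near sums none was called and of the 16 far sums 1 was, beside 12.3% of the 1498 near and far sums of all names. The median log2 fold change of the IAP LTR names was -0.06 near and 0.05 far, and that of all names 0.04 near and 0.33 far. In far sums, 1 of 16 IAP LTR names had every mutant above every wild-type library, beside 34.1% of all 680 names. That name was IAPEY3C_LTR, an LTR with 475 loci. Its far sum was 2.57, 1.74 and 3.24 CPM in wild-type and 5.42, 3.27, 7.29 and 7.78 CPM in mutant libraries, a log2 fold change of 1.21 (SE 0.35, adjusted p = 0.0694 from edgeR). Its near sum overlapped, at 14.6, 13.4 and 17.0 CPM in wild-type and 15.7, 11.3, 15.5 and 14.7 CPM in mutants. Mutant replicate 2 stood only just above wild-type replicate 3 in the far sum. The call was lost when any library but mutant replicate 2 was left out, with adjusted p of 0.113 to 0.195.

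The difference between the near and the far fold change was itself tested, with both sums of each library in 1 model. IAPEY3C_LTR was called, with a near minus far difference of -1.27 (SE 0.35, adjusted p = 0.0350 from edgeR), and it was not called without wild-type replicate 1 (adjusted p = 0.1003). It was the only call among the 16 IAP LTR names. Over all 677 names with enough reads on both sides 27.9% were called, nearly all with a negative difference, and the median difference was -0.29. The median of the IAP LTR names was -0.02, with 8 below 0 and 8 above. IAPLTR2a had the largest positive difference, 0.60 (SE 0.26, adjusted p = 0.125 from edgeR). Its far sum was 28.3, 81.7 and 24.2 CPM in wild-type and 27.7, 18.2, 21.6 and 24.2 CPM in mutants, so that wild-type replicate 2 alone stood out.

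**Figure D4:**
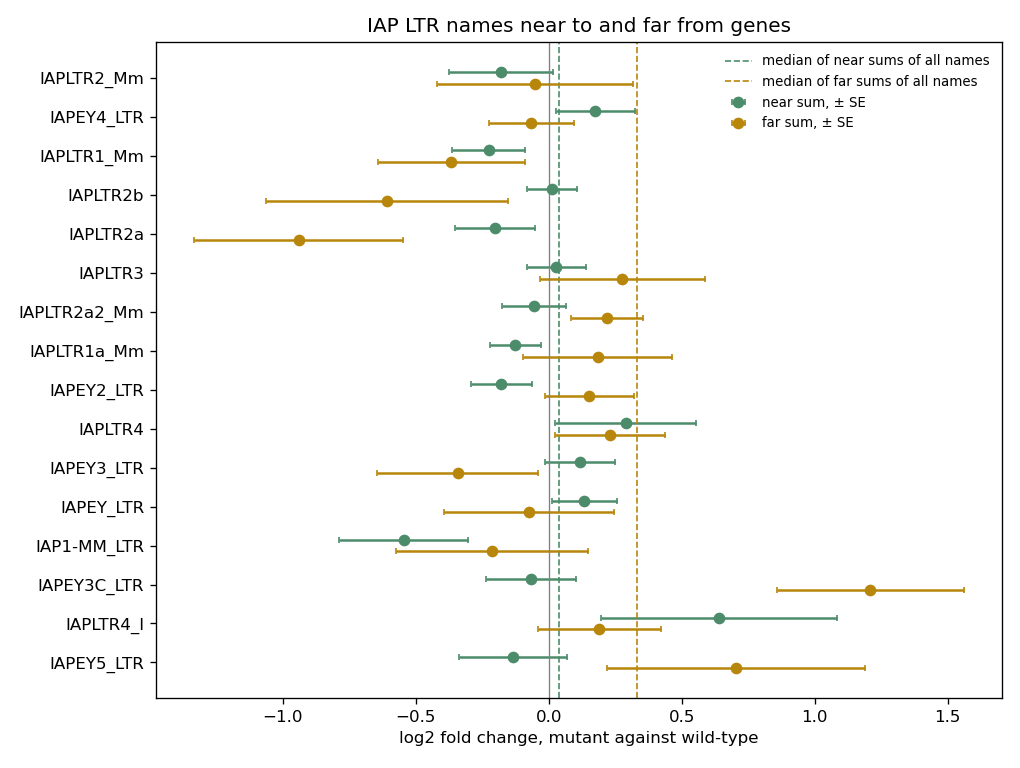
Log2 fold change of mutant against wild-type (x axis, ± SE) of near sums (green) and far sums (yellow) of each IAP LTR name (y axis), with dashed lines at the medians over all names, 0.04 for near and 0.33 for far. Most IAP LTR far sums lie left of the far median, and IAPEY3C_LTR lies to its right at 1.21, as does IAPEY5_LTR at 0.70 (SE 0.49).

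Lone LTRs and LTRs beside an internal sequence were compared in the same way. Lone loci summed to 900, 1358 and 896 CPM in wild-type and 901, 879, 992 and 1068 CPM in mutant libraries. Loci beside an internal sequence summed to 578, 779 and 727 CPM in wild-type and 672, 603, 766 and 724 CPM in mutants. The log2 ratio of lone to flanked was 0.58 ± 0.26 (SD, n = 3) and 0.48 ± 0.09 (SD, n = 4), and the difference of -0.10 was within the spread of the wild-type libraries (exact permutation test, p = 0.514). With the library labelled wild-type replicate 3 left out, the ratio was 0.64 and 0.80 in wild-type and 0.37 to 0.56 in mutants, so that the genotypes did not overlap, and the difference was -0.24 (exact permutation test, p = 0.0667, the smallest that 2 against 4 libraries allow). Without wild-type replicate 2 it was 0.0066. Of LTRs inside genes, those on the strand of the gene summed to 273 ± 22.4 CPM (SD, n = 3) in wild-type and 273 ± 22.1 CPM (SD, n = 4) in mutants. Those on the opposite strand summed to 566 ± 85.9 and 497 ± 32.4 CPM (exact permutation test, p = 0.200).

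Single loci were tested within a fit of all 464695 elements that averaged 1 read or more. That filter kept 814 of the 13908 IAP LTR loci. A locus could pass through the genotype in which it was high, so counts over the 814 do not speak for the rest. The test called 10 of them, all lower in mutants, and 0.0628% of all elements were called lower. An unadjusted p under 0.05 was found for 110 of the 814 (88 lower, 22 higher), beside 4.79% of all elements. The median log2 fold change was -0.24, beside 0.00 over all elements. These values turned on wild-type replicate 2. Without it 1 locus was called and the median was -0.08, and without the library labelled wild-type replicate 3 there were 19 calls, 18 of them lower. DESeq2 called none of the 814, with 23 at an unadjusted p under 0.05, and called 15 of all elements. It gave no adjusted p for several of the 10 loci that edgeR called. For the IAPEY4_LTR locus nearest *Ear1* it gave no p at all, so it gave no verdict on these loci.

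In CPM the genotypes overlapped at all 10 called loci, and what the loci shared was high counts in wild-type replicate 1, in replicate 2 or in both. The strongest call was an IAPEY4_LTR locus on chromosome 14 (43804374 to 43804700, minus strand), in an exon of the noncoding RNA *Gm49083* and 14065 bases from the eosinophil ribonuclease gene *Ear1*. It had 256 reads in wild-type replicate 1 and 1, 0, 1, 1, 1 and 2 reads in the other libraries. Its adjusted p of 2.88e-44 from edgeR rested on 1 embryo, since leaving that embryo out gave a log2 fold change of 1.25 (adjusted p = 0.987 from edgeR).

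A cluster of 3 called loci lay between genes on chromosome 7 within 4.86 kb, and the nearest gene of the FPKM table, the olfactory receptor gene *Olfr1350*, was 40908 bases or more away. An IAPLTR3 locus (6611827 to 6612138, plus strand) had 3, 28 and 0 reads in wild-type and 1, 0, 0 and 0 in mutant libraries (adjusted p = 0.000117 from edgeR). The IAPEY3_LTR locus beside it (6612634 to 6612934) had 5, 17 and 0 reads in wild-type and none in any mutant library, which makes it at least 8.16-fold higher in wild-type when 3 reads over the mutant group are taken as the limit that no read allows, a limit for counting error only. Without wild-type replicate 2, which held 17 of the 22 reads, the limit was 2.59-fold. The IAPEY_LTR locus (6616298 to 6616682) had 6, 28 and 0 reads in wild-type and 5, 1, 0 and 2 in mutants (adjusted p = 0.0784 from edgeR). All 3 were highest in wild-type replicate 2, and whether 1 transcript spans them was not tested.

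Wild-type replicates 1 and 2 were both high at 4 further loci, and the library labelled wild-type replicate 3 was within the range of the mutants in CPM at all 4. The IAPLTR2a locus on chromosome 7, 2637 bases from *l7Rn6* (89943841 to 89944234, minus strand), had 10, 15 and 0 reads in wild-type and none in mutant libraries, at least 9.27-fold higher in wild-type by the same limit, or 5.18-fold without wild-type replicate 2. The IAPLTR2a locus in an intron of *Acly*, the ATP citrate lyase gene (chromosome 11, 100494199 to 100494626), had 32, 40 and 6 reads in wild-type and 12, 7, 2 and 5 in mutants, with a log2 fold change of -1.75 (SE 0.35, adjusted p = 0.00208 from edgeR). *Acly* itself had 92.7 ± 12.6 FPKM (SD, n = 3) in wild-type and 100.6 ± 4.23 FPKM (SD, n = 4) in mutants. The IAPLTR1_Mm locus on chromosome 4 (98454410 to 98454761, plus strand) overlaps coding sequence of *Inadl*, a tight junction gene also called *Patj*, and had 42, 25 and 8 reads in wild-type and 11, 6, 9 and 5 in mutants, with a log2 fold change of -1.40 (SE 0.34, adjusted p = 0.0617 from edgeR). *Inadl* itself had 11.98 ± 2.19 FPKM (SD, n = 3) in wild-type and 9.07 ± 0.733 FPKM (SD, n = 4) in mutants, a log2 fold change of -0.37 (SE 0.12, adjusted p = 0.210 from limma). The IAPLTR2_Mm locus in an intron of *Dym* (chromosome 18, 75107098 to 75107680) had 16, 32 and 10 reads in wild-type and 9, 0, 5 and 6 in mutants (adjusted p = 0.0317 from edgeR). There wild-type replicate 1 stood only a little above mutant replicate 1, at 3.42 and 2.57 CPM.

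The last called pair were highest in wild-type replicate 2. An IAPLTR1_Mm locus 26782 bases from *Setd3*, a histidine methyltransferase gene, on chromosome 12 (108079292 to 108079649) had 31, 65 and 23 reads in wild-type and 10, 0, 28 and 15 in mutants, and an IAPLTR2_Mm locus in an intron of *Tmcc3* on chromosome 10 (94536213 to 94536617) had 6, 18 and 0 reads in wild-type and 2, 1, 0 and 0 in mutants. Their adjusted p-values were 0.00329 and 0.0802 from edgeR. At the locus nearest *Setd3* mutant replicate 3, at 8.87 CPM, stood above wild-type replicate 1, at 6.64 CPM. Leaving out wild-type replicate 2 ended 7 of the 10 calls, took the IAPLTR3 and IAPEY3_LTR loci of the chromosome 7 cluster under the filter and left the IAPEY4_LTR locus. Germ cell markers and piRNA genes were also highest in wild-type replicates 1 and 2, and their part in these calls was not tested.

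**Figure D5:**
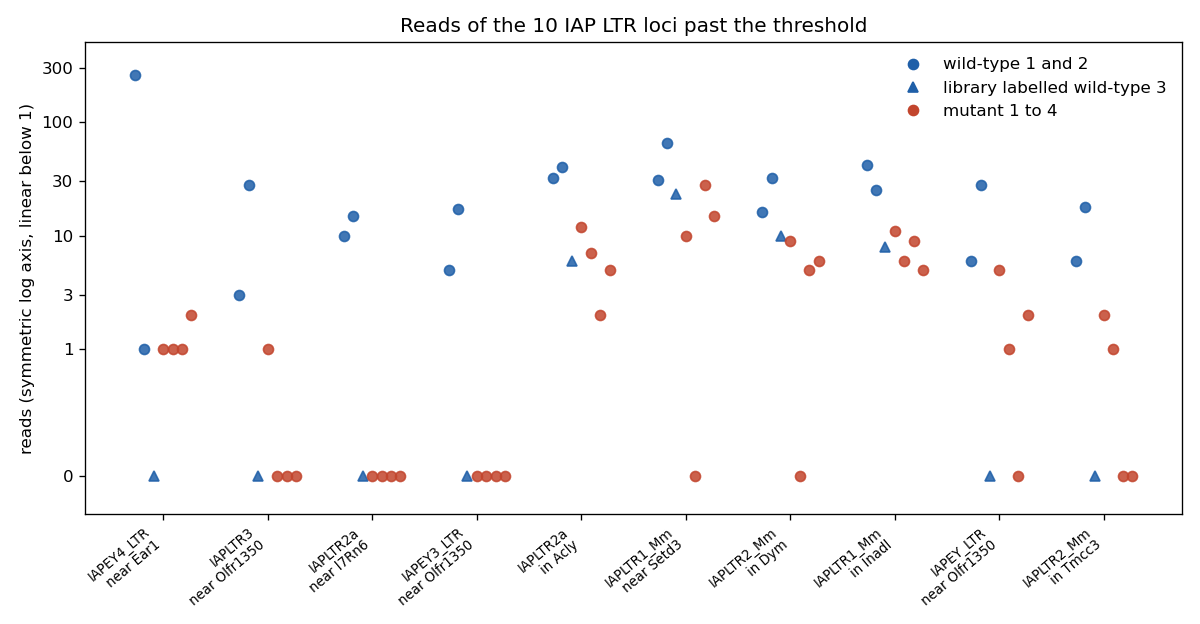
Reads (y axis, symmetric log scale, linear below 1) of the 10 called IAP LTR loci (x axis, with the gene that holds or lies nearest to each), with 1 point per library. In the axis labels near stands for the nearest gene at any distance. The highest point at each locus is wild-type replicate 1 or 2 (blue circles). The library labelled wild-type replicate 3 (blue triangles) lies with or close to the mutants (red) at each locus. At the locus nearest *Setd3* mutant replicate 3, with 28 reads, lies close to wild-type replicate 1, with 31.

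By place and kind, 5 of 569 tested near loci and 5 of 245 tested far loci were called. So were 6 of 448 lone loci and 4 of 366 beside an internal sequence. Of all elements tested, 0.0628% were called lower. Among tested loci the median log2 fold change was -0.16 near and -0.49 far, and -0.41 for lone loci and -0.08 for those beside an internal sequence. Without wild-type replicate 2 the filter was applied anew and kept 558 near, 210 far, 396 lone and 372 flanked loci. The medians over these loci were -0.13, 0.05, -0.12 and -0.08. By name, IAPLTR2a was the lowest of the larger sets, with 56 of 68 tested loci lower in mutants and a median of -0.83. Over the 57 IAPLTR2a loci that passed the filter without wild-type replicate 2 the median was -0.27. IAPLTR2_Mm, with the most tested loci, had 125 of 200 lower and a median of -0.36, and 0.06 over the 188 that passed without that library. Of all elements tested, 49.8% were lower. At the 81 loci with a mean of at least 10 reads the median was -0.04, with 42 lower and 39 higher.

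Of the 10 most abundant loci none was called. The highest was an IAPEY4_LTR locus on chromosome 7 (48124124 to 48124449, minus strand), between genes and 43568 bases from *Mrgprb5*, a receptor gene of the Mas-related family. It had 226, 448 and 572 reads in wild-type and 380, 294, 440 and 483 in mutants, a log2 fold change of 0.15 (SE 0.15). An IAPLTR3 locus nearby (48157360 to 48157685), 10332 bases from the same gene, had 352, 195 and 151 reads in wild-type and 304, 355, 147 and 168 in mutants. The library order of this pair was nearly opposite, since the first was low and the second high in wild-type replicate 1 and mutant replicate 2. The IAPLTR3 locus on coding sequence of *Ptprd*, a receptor tyrosine phosphatase gene on chromosome 4 (76085937 to 76086029), had 261, 247 and 300 reads in wild-type and 243, 243, 239 and 216 in mutants. The IAPEY4_LTR locus on chromosome 14 (43933141 to 43933467), in a UTR of *Gm8113* and 9773 bases from *Ear10*, had 120, 173 and 225 reads in wild-type and 167, 200, 167 and 164 in mutants. On chromosome 2, IAPLTR2b loci in *3300002I08Rik* (150341203 to 150341519) and in a UTR of the zinc finger gene *Zfp937* (150239795 to 150240110) were even, with 149 to 199 and 128 to 138 reads in wild-type and 156 to 177 and 106 to 131 in mutants. The IAPLTR4 locus on chromosome 7 that held most reads of its name (106269783 to 106270076, 52320 bases from *Gm8989*) had 96, 114 and 140 reads in wild-type and 63, 118, 120 and 181 in mutants.

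An IAPLTR2_Mm locus far from genes on chromosome 7 (39655242 to 39655724, 114827 bases from *Zfp619*) was among the highest and among the most uneven, with 65, 151 and 222 reads in wild-type and 94, 89, 196 and 323 in mutants. Its log2 fold change was 0.48 (SE 0.17, adjusted p = 0.718 from edgeR), and 0.87 (SE 0.20, adjusted p = 0.0166 from edgeR) without the library labelled wild-type replicate 3, where it was the only IAP LTR locus called higher. The value was 0.07 without wild-type replicate 1 and 0.03 without mutant replicate 4. The IAPLTR2_Mm locus on chromosome 10 (99599559 to 99600037), 9134 bases from *Gm20110*, had 114, 96 and 98 reads in wild-type and 70, 73, 137 and 149 in mutants.

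Loci whose genotypes did not overlap were few. With a lower CPM in every mutant there were 22 of 814 (2.70%, beside 3.03% of all elements), and with a higher CPM in every mutant 14 (1.72%, beside 2.97%). Among the 81 loci with a mean of at least 10 reads none was lower in every mutant. The share higher in every mutant, near the 2.97% of all elements averaging 1 read or more, was 3.70%, or 3 loci. These were the IAPLTR2a locus on coding sequence of *Gramd1b*, a sterol transfer protein gene (chromosome 9, 40314953 to 40315123), the IAPEY3C_LTR locus in an intron of *Slc38a1*, a glutamine transporter gene (chromosome 15, 96583064 to 96583367), and the IAPLTR2b locus in an intron of *Stk3*, a Hippo pathway kinase gene (chromosome 15, 34922783 to 34923100). The locus in *Gramd1b* had 109, 95 and 126 reads in wild-type and 113, 148, 137 and 133 in mutants, or 23.3 to 31.4 and 32.2 to 44.1 CPM, a log2 fold change of 0.53 (SE 0.18, adjusted p = 0.670 from edgeR). *Gramd1b* itself was 10.7 to 12.5 FPKM in wild-type and 13.1 to 14.5 FPKM in mutants. The locus in *Slc38a1* had 2.50 to 3.21 CPM in wild-type and 3.49 to 5.42 CPM in mutants, from 10 to 15 and 11 to 19 reads that overlapped, and that in *Stk3* 2.14 to 3.20 and 3.42 to 4.12 CPM. *Slc38a1* itself overlapped, at 8.60 ± 1.14 FPKM (SD, n = 3) and 8.78 ± 0.848 FPKM (SD, n = 4). *Stk3* itself also lay higher in every mutant, at 25.8 to 28.5 and 31.0 to 31.7 FPKM (log2 fold change 0.21, SE 0.06, adjusted p = 0.180 from limma).

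Genes beside IAP LTRs were compared with limma on log2(FPKM + 0.5), a scale that understates the change of low genes. Of 2269 genes within 10 kb of an IAP LTR locus 1160 had a mean of at least 0.5 FPKM, and none passed an adjusted p of 0.05. An unadjusted p under 0.05 was found for 186 of the 1160 (16.0%), beside 17.0% of all 13988 genes tested. Without the library labelled wild-type replicate 3, 56 of 1161 (4.82%) and 722 of 14019 (5.15%) were called. Over the 409 tested loci inside 323 tested genes Pearson's r between both fold changes was 0.18, as a description across loci of the same libraries, with the same sign at 51.6%.

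Genes known to keep retrotransposons silent were listed by role, and 37 of 38 had enough signal. None passed the test by limma with all 7 libraries, and 12 (32.4%, beside 17.0% of all genes) had an unadjusted p under 0.05, 11 of them lower in mutants. Of the 14 genes of heterochromatin, 13 had a negative log2 fold change, beside 6694 of all 13988 genes. The median log2 fold change of the 14 was -0.08, beside 0.01 over all genes, and 2 (14.3%) had an unadjusted p under 0.05. *Trim28*, the corepressor that KRAB zinc finger proteins bring to IAPs, had 280, 176 and 212 FPKM in wild-type and 194, 203, 219 and 198 FPKM in mutants. *Setdb1*, which methylates histone H3 lysine 9, was lower in every mutant, at 49.0, 43.0 and 41.0 FPKM and 38.3, 38.4, 36.5 and 36.9 FPKM (log2 fold change -0.23, SE 0.07, adjusted p = 0.194 from limma). *Hells*, a chromatin remodeller needed for DNA methylation of repeats, had 112, 87.6 and 102 FPKM in wild-type and 68.3, 75.3, 83.3 and 76.7 FPKM in mutants (log2 fold change -0.40, SE 0.10, adjusted p = 0.169 from limma). *Uhrf1*, the partner of the maintenance methyltransferase *Dnmt1*, was higher in every mutant, at 39.2 to 45.0 and 45.5 to 54.6 FPKM (adjusted p = 0.244 from limma), and *Dnmt1* itself overlapped. Of the 7 DNA methylation genes 6 had a negative log2 fold change. The median of the 7 was -0.08, and only *Uhrf1* had an unadjusted p under 0.05. *Dnmt3l*, the cofactor of de novo methylation in fetal germ cells, had 0.883, 7.35 and 0.0754 FPKM in wild-type and 1.95, 0.424, 0.0813 and 0.0826 FPKM in mutants. The KRAB zinc finger genes *Zfp809*, *Zfp932* and *Zfp708* had no unadjusted p under 0.05.

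The piRNA and germline genes of the list had negative log2 fold changes in 13 of 13 tested, at a median of -1.27, and 9 (69.2%, beside 17.0% of all genes) had an unadjusted p under 0.05. All 10 germ cell markers, *Ddx4* among them, were lower too, at a median log2 fold change of -0.74. How far lower germ cell RNA in bulk tissue accounts for the piRNA genes was not tested. *Ddx4*, the germ cell RNA helicase, had 102, 94.7 and 53.1 FPKM in wild-type and 39.8, 33.6, 42.2 and 34.9 FPKM in mutants (log2 fold change -1.08, SE 0.21, adjusted p = 0.136 from limma). *Mael*, a piRNA pathway protein, had 67.1, 128 and 18.8 FPKM in wild-type and 30.6, 18.2, 15.7 and 12.9 FPKM in mutants. The Tudor domain gene *Tdrkh* and the mitochondrial nuclease gene *Pld6* were lower in every mutant, with log2 fold changes of -0.84 (SE 0.15) and -0.62 (SE 0.13). *Asz1*, *Mov10l1*, *Piwil2*, *Tdrd1* and *Tex19.1*, also of this pathway, had log2 fold changes of -0.72 to -1.32 with overlapping groups. Without wild-type replicate 2 those of *Asz1*, *Tdrd1* and *Mael* were -0.56, -0.74 and -0.94, in place of -1.12, -1.27 and -1.55. Without the library labelled wild-type replicate 3, 10 genes of the whole list were called by limma, beside 5.15% of all genes, among them *Ddx4* (adjusted p = 0.00391) and *Mael* (adjusted p = 0.0151). With that library left out the IAP LTR sum was 1478 and 2136 CPM in wild-type, on either side of the mutants at 1482 to 1792 CPM.

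Over the 7 libraries the IAP LTR sum was most like RLTR19A among 815 other names (Pearson's r 0.95 on log2 CPM), followed by RLTR10F (0.94), IAP-d-int (0.93), MT2B1 (0.93) and RLTR44E (0.89). These are descriptions over 7 libraries that share depth and scaling. RLTR19A had 84.0 CPM in wild-type replicate 2, its highest library, and 63.4 CPM in wild-type replicate 1, its lowest, which were also the highest and lowest libraries of the IAP LTR sum.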

How the data were processed

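Reads were aligned by the authors with TopHat2 2.0.12 to mm10. Per the paper's methods, the deposited count values are uniquely mapped reads per RepeatMasker LINE, SINE or LTR element, made by the authors with HTSeq. The deposited FPKM values are per RefSeq gene, made by the authors with Cuffnorm, and keep no read depth. Both tables hold all 7 libraries, 3 wild-type and 4 mutant, each a separate embryo, and 0 columns of other samples. Every element and every gene row carries a name. Total element reads set the precision of the counts.

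For counts, edgeR 4.0.16 (R 4.3.3) gave quasi-likelihood tests (TMM, group only, Benjamini-Hochberg adjustment over all features tested, threshold 0.1). The levels were single elements with a mean of at least 1 read, sums per name, and sums per name near to or far from genes, the last pair with a mean of at least 10 summed reads. The near minus far difference was fitted with the library as a block. FPKM values were tested with limma 3.58.1 on log2(FPKM + 0.5) where the mean reached 0.5 FPKM, at a threshold of 0.05. Exact permutation tests, two-sided, were used for single values per library. Places come from GENCODE M21 and promoter windows from RefSeq (GRCm38).

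Named in the text are all 16 names, loci past the threshold, the 10 loci with the highest mean CPM, loci with a mean of at least 10 reads whose genotypes did not overlap, the genes at these loci, silencing genes with an unadjusted p under 0.05, *Glis3*, and the 5 names most like the IAP LTR sum. Loci that vary within both genotypes, loci at RefSeq starts and the genes named beside them were chosen after their values were seen, as were *Trim28*, *Dnmt1*, *Dnmt3l* and the KRAB genes named from the silencing list. The members and lists were chosen with earlier results of these data known. Alternatives were DESeq2 1.42.0, other scalings, filters, distances and thresholds, a replicate block, and leaving out each library, with 2 more chosen after seeing the data. The tests were tested on simulated data. For loci, all had the same simulated dispersion and changes were placed only at means of at least 10 reads. That setting does not cover called loci with fewer reads or loci that vary widely within a genotype.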

Additional observations from a re-analysis of the deposited data

Results flagged for a closer look

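Of 88 sets of 4 mutant values examined, 4 held a library that stood apart by Dixon's test, and chance gives about 1 in 20. The near sum of IAP1-MM_LTR was lowest in mutant replicate 4, at 8.65 CPM beside 14.5 to 15.5 CPM in the other mutants. The near sum of IAPLTR2a was also lowest there, at 86.5 CPM beside 93.8 to 94.8 CPM. At the IAPEY4_LTR locus nearest *Ear1* mutant replicate 4 was highest, at 0.577 CPM, which is 2 reads. At the IAPLTR3 locus nearest *Olfr1350* mutant replicate 1 was highest, at 0.285 CPM, which is 1 read.

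IAPEY3C_LTR differed between its near and its far loci, with a near minus far log2 fold change of -1.27 (SE 0.35, adjusted p = 0.0350 from the edgeR test of the difference itself). Its far sum was higher in 4 of 4 mutants than in any wild-type library and rested on 1.74 to 7.78 CPM. Of all 677 names tested 27.9% passed the same test.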

How the results depend on the processing

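The count of 10 IAP LTR loci was 0 with DESeq2, 0 with a mean of at least 10 reads and 6 with a robust quasi-likelihood fit, an alternative chosen after seeing the data, as was the demand for reads in 4 or more libraries, which left 7. It ran from 1 (without wild-type replicate 2) to 19 (without the library labelled wild-type replicate 3) when a library was left out, and was 5 without mutant replicate 2. The log2 fold change of the IAPEY4_LTR locus nearest *Ear1* turned to 1.25 without wild-type replicate 1 and was -6.18 at its lowest. The count of all elements called, 393, was 15 with DESeq2, 17 with a mean of at least 10 reads, and 139 and 659 without wild-type replicates 2 and 3. Several of the 10 IAP LTR loci had no adjusted p from DESeq2.

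No IAP LTR name was called under any alternative run, while the count over all names, 1 with edgeR, was 46 with DESeq2 and 30 without wild-type replicate 2. The 1 near or far sum called was 0 at 1 kb, 0 with only genes of at least 0.5 FPKM, and 0 to 1 with a library left out, kept only without mutant replicate 2. Over all names the 184 calls became 98 at 1 kb, 1 without wild-type replicate 1 and 260 without mutant replicate 2. The 1 near minus far difference was 0 at 1 kb and 2 at 50 kb, and 0 to 3 with a library left out. Over all names the 189 calls there became 88 at 1 kb and ran from 35 to 280 with a library left out.

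The difference of -94.3 CPM in the IAP LTR sum ran from -218 to 65.8 with a library left out, above 0 only without wild-type replicate 2. That of the log2 near to far ratio ran from -0.15 to 0.03, above 0 without wild-type replicate 1 (0.033) or mutant replicate 4 (0.029), and was 0.053 without the 10 highest loci. That of the log2 lone to flanked ratio ran from -0.24 (without the library labelled wild-type replicate 3) to 0.0066 (without wild-type replicate 2). Genes near IAP LTRs gave 0 to 56 calls and silencing genes 0 to 10 with a library left out, both above 0 only without the library labelled wild-type replicate 3. The causes were not tested.

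Deviations from the group means of same-numbered libraries correlated at 0.0424, -0.0858 and 0.0306 for numbers 1 to 3 across loci. Across genes the values were 0.198, -0.177 and 0.229. Libraries of unlike number were not correlated, so these values cannot tell whether replicate numbers pair the libraries. With the replicate block 7 loci, 0 names, 0 near or far sums (0 of 1498 over all names) and 0 genes were called, and the IAP LTR sum differed by -141 CPM. Depth limits single loci, and only 814 of 13908 IAP LTR loci were tested.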
